A study of Mus musculus with 2 samples.

Results

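This account covers 10 genes whose mRNAs belong to the 5' terminal oligopyrimidine (TOP) class without encoding ribosomal proteins: the translation elongation factor genes Eef1a1, Eef1b2, Eef1d, Eef1g and Eef2, the poly(A)-binding protein gene Pabpc1, the nascent-polypeptide-associated complex genes Naca and Btf3, the histone chaperone gene Nap1l1, and Tpt1, which encodes the translationally controlled tumour protein. The genes were chosen by name, with results of these data known, and all 10 were found among the 24421 genes listed. The study compared 3T3-L1 adipocytes, cells of a mouse preadipocyte line turned into fat cells in culture, that had either no added agent (control) or DF, a preparation of several herbs described as anti-obesity, in the medium up to harvest. Each condition was 1 library, from cells at passages 10 to 13 for which the labels give C57BL/6 as strain background. Both were differentiated alike, starting 2 days after confluence, with insulin (1 µg/mL), dexamethasone (0.25 µM) and IBMX (0.5 mM) for 2 days and insulin alone afterwards, in medium with 10% fetal bovine serum. Neither the DF dose nor the harvest day is given in the sources used here, and a cell line in culture lacks the other cells of fat tissue. With 1 library per condition, no difference below has a replicate check, no test was run, and every comparison is a description of these 2 libraries.

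TOP mRNAs begin with a cytosine followed by an uninterrupted run of pyrimidines directly at the cap. The class holds the mRNAs of the ribosomal proteins and of much of the remaining translation machinery. The kinase complex mTORC1 controls their translation together, in part through the cap-binding protein LARP1, which can also stabilise them. During elongation eEF1A brings aminoacyl-tRNA to the ribosome, the eEF1B complex recharges eEF1A with GTP, and eEF2 moves the ribosome along the mRNA. The libraries measured mRNA abundance only, so nothing here bears on how often these mRNAs were translated.

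Sequences near the gene starts annotated by RefSeq are shown because a pyrimidine run at the 5' end of the mRNA defines the class. RefSeq windows (GRCm38.p6) were at hand for 7 of the 10 genes, and none was used for Eef1d, Eef1g and Pabpc1. A run was a C followed by 4 or more bases that were each C or T, read on the transcribed strand. Each line gives 30 bases, 5' to 3', around the run nearest to the start within 50 bases, with the run in capitals.
Eef1a1: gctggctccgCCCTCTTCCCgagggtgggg
Eef1b2: tgcgtccgagcgCTTTCgttcaactccggc
Eef2: cgtcagcggtCTCTTCCgccgcagccgccg
Tpt1: cgtagccacgCCCCCgcaccgccctgcgtt
Naca: gcaactcgttCTCTTaaagaggaaacccgg
Btf3: cgtcgcgttaCTTCCggcctccctctagct
Nap1l1: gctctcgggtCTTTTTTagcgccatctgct

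The run of Nap1l1 began exactly at the annotated start, and those of Eef1a1 and Naca began 5 bases before it. The runs of Btf3 (at the first of its 2 starts) and Eef2 began 14 and 15 bases after the start base, that of Eef1b2 32 bases after it and that of Tpt1 38 bases before it. The longest shown is that of Eef1a1, with 10 bases, against 7 in Eef2 and Nap1l1 and 5 in the others. A run was counted in a narrow window when its first base was among the 15 bases before the start or the 15 that begin with the start base, which leaves out Eef2 by 1 base. On that count 4 of the 7 genes had a run, in 4 of their 8 windows; of all 32851 RefSeq windows 38.6% did, and of 68 windows of cytosolic ribosomal protein genes 60.3%. With 50 bases on either side all 7 genes had a run, in 8 of 8 windows, beside 76.8% of all windows, so a run this short is common near gene starts in general. On the opposite strand 6 of the 8 member windows (75.0%) had a run in the narrow window and 7 of 8 in the wide one, beside 43.2% and 81.8% of all windows. Annotated starts were not measured in these cells, and a run in the window is not by itself the start of an mRNA. The stretches lie, on the plus strand unless stated, at chr9:78481710-78481739 (Eef1a1, minus strand), chr1:63176851-63176880 (Eef1b2), chr10:81176636-81176665 (Eef2), chr14:75845208-75845237 (Tpt1), chr10:128035331-128035360 (Naca), chr13:98316973-98317002 (Btf3, minus strand) and chr10:111473217-111473246 (Nap1l1). Those of Eef1b2, Eef2 and Btf3 lie wholly downstream of the annotated start, that of Tpt1 wholly upstream of the RefSeq start, and the others span it. The RefSeq starts of Eef1a1, Naca and Tpt1, and by a few bases those of Eef1b2 and Nap1l1, differ from the GENCODE bounds given below. Those bounds begin farther downstream for Naca and farther upstream for Eef1a1, Tpt1, Eef1b2 and Nap1l1.

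The values are the deposited ones on a log2 scale, and a difference is the DF value minus the control value. Their sorted values are identical in both libraries over the highest 140 ranks, as after quantile normalization, which sets both libraries to 1 distribution. Eef1a1, Eef2 and Tpt1 lay among those ranks in both libraries, so their differences restate a change of rank. If all values were normalized in this way, the same holds for the other members. The sequencing depth is unknown, and no counting interval was computed. Of all genes, 11744 were above 0 in both libraries, with a median difference of 0.04. Genes at or above 8.18 (the median of all values above 0) in either library were examined, and those that differed by at least 1.5-fold were counted as higher or lower. All 10 genes were examined, and each was far above that level in both libraries.

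Of the 10 genes, 9 had a lower value with DF, as the plot of levels shows, and the 5 elongation factor genes had the largest differences. By the 1.5-fold rule 3 of the 10 were lower, Eef1b2, Eef2 and Eef1g, beside 10.9% of the 6761 genes examined. None was higher, beside 10.2% of the genes examined. The median difference over the 10 genes was -0.46, with a range from -0.80 to 0.06 and an SD across genes of 0.29. At a limit of 2-fold 0 of the 10 were lower, beside 3.21% of all genes examined, so each of these differences is below 2-fold. With no level floor, the shares of the 11744 genes above 0 in both libraries beyond 1.5-fold were 15.9% lower and 18.3% higher, with the members' count unchanged at 3 lower and 0 higher. Because the genes were chosen with these values known, their count and median describe them and support nothing further.

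**Figure D1:**
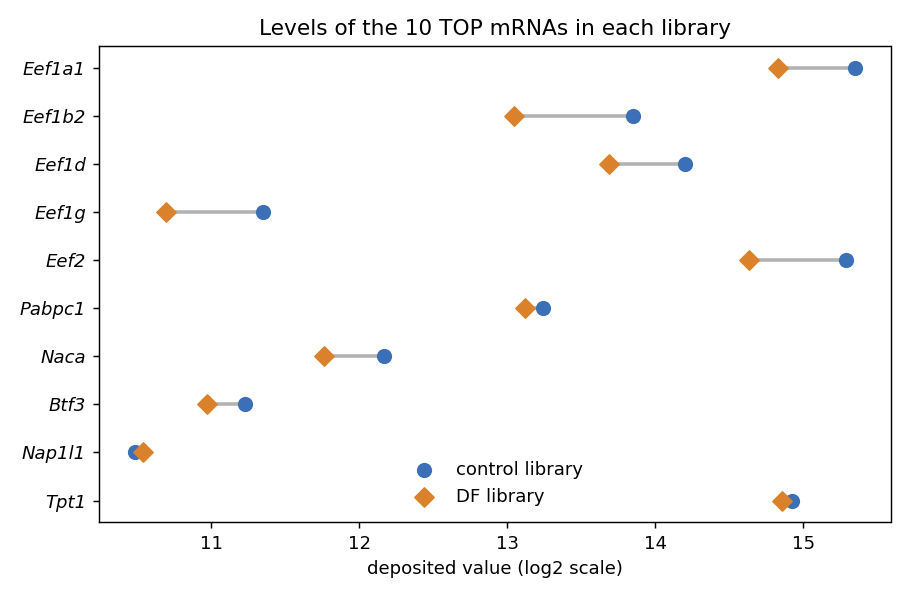
Deposited value (log2 scale, x axis) of each of the 10 genes (y axis) in the control library (circles) and with DF (diamonds), 1 library each, joined by a line. The 5 elongation factor genes at the top have the longest lines, with differences from -0.80 to -0.52, whereas Tpt1 and Nap1l1 nearly coincide.

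Eef1a1 encodes the GTPase that delivers aminoacyl-tRNA. It stood at 15.34 without DF and 14.83 with it, a difference of -0.52 or 1.43-fold, just within the 1.5-fold limit, and moved from rank 41 to rank 69 of all genes. Eef2 encodes the translocase. It stood at 15.29 and 14.63, 1.58-fold lower with DF, and moved from rank 42 to rank 81. The pair thus held adjacent ranks in the control library and both stood lower with DF, Eef2 by 0.14 log2 units more than Eef1a1. Eef1a1 lies at chromosome 9, 78478449 to 78489151 on the minus strand, and Eef2 at chromosome 10, 81176631 to 81182498 on the plus strand (GENCODE vM21, GRCm38).

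The 3 genes of the eEF1B complex, the exchange factor of eEF1A, all stood lower with DF. Eef1b2, which encodes a catalytic subunit, had the largest difference of the 10 genes: it stood at 13.85 without DF and 13.05 with it, 1.74-fold lower. Eef1g, which encodes the structural subunit, was at 11.35 and 10.70, 1.57-fold lower and just past the limit. Eef1d, which encodes a second exchange subunit, was at 14.20 and 13.69, 1.43-fold lower and just within it. Relative to Eef1a1 within each library, Eef1d kept the same distance (-1.14 log2 units in both), whereas that of Eef1b2 went from -1.50 to -1.78. Summed on the linear scale, the 3 subunits came to 36220 in the control and 23295 with DF, 64.3% of the control. Eef1b2 lies at chromosome 1, 63176825 to 63180486 (plus), Eef1g at chromosome 19, 8967041 to 8978479 (plus), and Eef1d at chromosome 15, 75894205 to 75909556 (minus). Eef1b2 overlaps Ndufs1 on the other strand by 9 bases, and Ndufs1 was 0.57 log2 units higher with DF. Eef1d overlaps Naprt on its own strand by 277 bases; Naprt was at 3.00 and 5.15, near the bottom of the scale.

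The remaining 5 genes differed less. Pabpc1 encodes the protein that coats poly(A) tails and links them to the cap complex; it stood at 13.24 in the control and 13.12 with DF, a difference of -0.12. Naca and Btf3 encode the alpha and beta subunits of the complex that shields nascent chains at the ribosome exit. Naca stood at 12.17 and 11.76 (1.33-fold lower) and Btf3 at 11.23 and 10.97 (1.20-fold lower), so both subunits were lower, and neither reached the limit. Nap1l1, a chaperone of histones H2A and H2B, stood at 10.48 and 10.54 and was the only member with a higher value under DF. Tpt1, which encodes an abundant calcium-binding growth-related protein, stood at 14.93 and 14.85, ranks 61 and 67. Tpt1 and Eef1a1 thus changed places in the order of ranks: Eef1a1 was above Tpt1 by 0.42 log2 units in the control and below it by 0.03 with DF. The other positions are chromosome 15, 36595661 to 36609668 (Pabpc1, minus), chromosome 10, 128035575 to 128048637 (Naca, plus), chromosome 13, 98309896 to 98317006 (Btf3, minus), chromosome 10, 111473223 to 111498150 (Nap1l1, plus) and chromosome 14, 75845093 to 75848525 (Tpt1, plus).

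The elongation factor genes and the other 5 thus did not overlap in their differences: the former lay between -0.80 and -0.52 and the latter between -0.41 and 0.06. This division by function was drawn after the values were seen. In linear terms the 5 elongation factor genes summed to 117920 in the control and 77775 with DF (66.0% of the control), and the other 5 to 49251 and 45469 (92.3%). Together the 10 genes made up 0.872% of all linear values in the control and 0.643% with DF. In order of deposited level the control library ran Eef1a1, Eef2, Tpt1, Eef1d, Eef1b2, Pabpc1, Naca, Eef1g, Btf3 and Nap1l1. With DF, Tpt1 moved to the front, Pabpc1 passed Eef1b2, and Btf3 passed Eef1g. The protocol reads 3' ends, and no source used here states whether the values were divided by transcript length. This is thus an order of deposited values and not of transcript numbers, and without replicates no spread tells which neighbours in it differ.

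**Figure D2:**
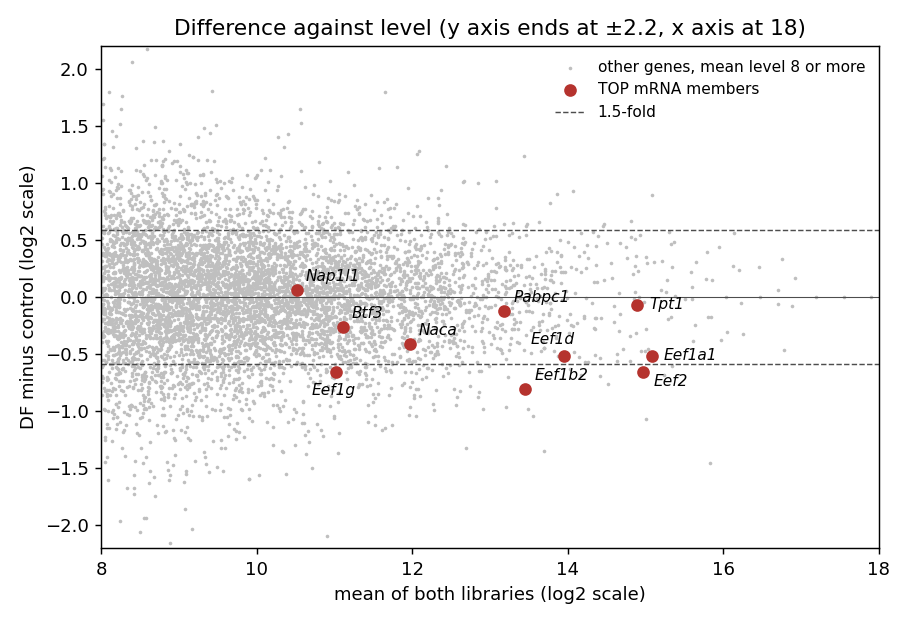
DF minus control (log2 scale, y axis) against the mean of both libraries (log2 scale, x axis) for genes with a mean of 8 or more (grey) and the 10 members (red, named); dashed lines mark 1.5-fold. Eef1b2, Eef2 and Eef1g lie below the lower line, and the scatter of the grey points narrows towards high levels.

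The spread of differences narrows with level, so each gene was also set beside the 200 genes of most similar mean level. For the elongation factor genes, 4 (Eef1b2) to 18 (Eef1a1) of the 200 had a lower difference, with 9 for Eef2, 12 for Eef1g and 15 for Eef1d. For Naca it was 30, for Btf3 51, for Pabpc1 66, for Tpt1 82 and for Nap1l1 115, so the last 3 lay well inside the range of genes of like level. Of the 2266 genes with a mean level at or above that of Nap1l1, the lowest member, 6.75% were lower by at least 1.5-fold and 49.2% had a difference below 0. These placements come from the same 2 libraries that were known when the genes were chosen, and they are no measure of chance.

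**Figure D3:**
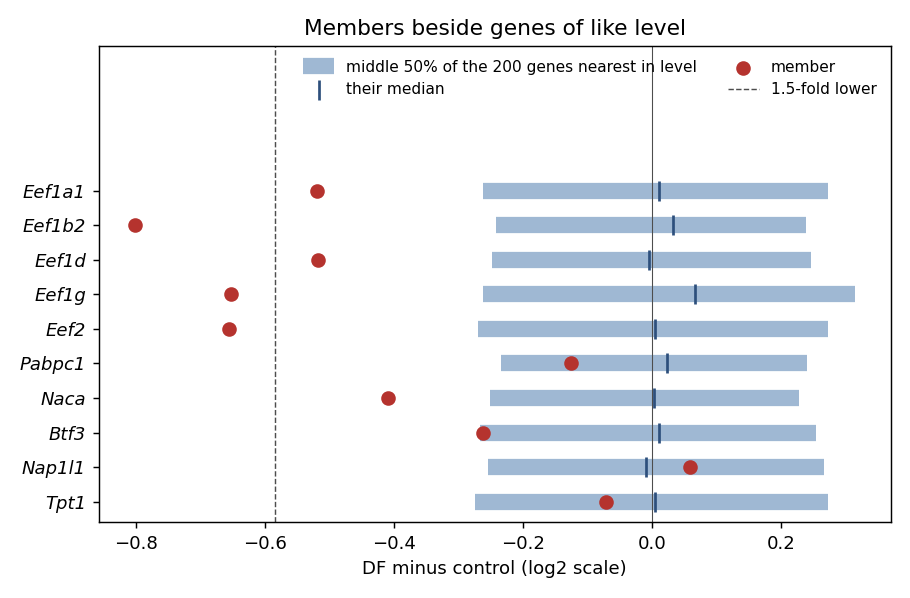
DF minus control (log2 scale, x axis) of each member (red point) beside the median (tick) and the middle 50% (bar) of the 200 genes of most similar mean level. The 5 elongation factor genes and Naca lie to the left of their bars, Btf3 lies at the lower edge of its bar, and Pabpc1, Tpt1 and Nap1l1 lie inside theirs.

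Near-identical copies make some of these values less certain. Of the 426 stretches of 75 bases (the read length) in the last 500 bases of each longest coding transcript, 51.2% of those of Naca occur unchanged in another annotated transcript, all of these in the processed pseudogene Gm6863. The share was 26.3% for Tpt1, 19.5% for Eef1a1, 11.5% for Btf3 and 4.46% for Eef1g, and 0 for Eef1b2, Eef1d, Eef2, Pabpc1 and Nap1l1. None of the genes sharing such stretches is listed in the deposited values, and no label states whether reads matching more than 1 place were kept. Of the genes counted as lower, Eef1b2 and Eef2 had no shared stretch and Eef1g had 4.46%. Pabpc1 and Nap1l1, with small differences, had none either. Only exact matches to annotated transcripts were counted, and the part of shared reads in the differences was not tested. Several members also hold small nucleolar RNA genes within their bounds. Snora41 (in Eef1b2), Snord37 (in Eef2) and Snora31 (in Tpt1) were listed at 0 in both libraries, in a protocol that primes on poly(A) tails.

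The other TOP mRNAs and the ribosomal protein mRNAs had medians below 0, although most of them lay within 1.5-fold; list medians are over the genes above 0 in both libraries, examined or not. Of the 14 genes on the list of other TOP mRNAs, 4 encode ribosomal proteins. Of the remaining 10, 9 were examined, with 2 (22.2%) lower and 0 higher by 1.5-fold, beside 10.9% and 10.2% of all genes examined. A difference below 0 was found for 8 of the 10, with a median of -0.55 over the 10. The 2 were Eif3f, a subunit of the initiation factor eIF3 (12.77 and 11.79), and Eif2s3x, the gamma subunit of eIF2 (11.01 and 9.66). Gnb2l1 (Rack1), a scaffold on the small ribosomal subunit and the most abundant of them, was at 14.54 and 13.97. Vim (12.67 and 12.09), named after its values were seen, is also on the list of preadipocyte and fibroblast markers. Npm1 is also on that of histone chaperones. Among 79 cytosolic ribosomal protein genes, 27 of 77 examined were lower and 0 higher, 75 had a difference below 0, and their median of -0.46 equalled that of the 10 members to 2 decimals. Among 9 host genes of small nucleolar RNAs, 3 of 8 examined (37.5%) were lower and 1 (12.5%) higher, the latter near the share of all genes. The median of the 9 was -0.56. Gas5, the most abundant non-coding one, was at 11.84 and 11.28.

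**Figure D4:**
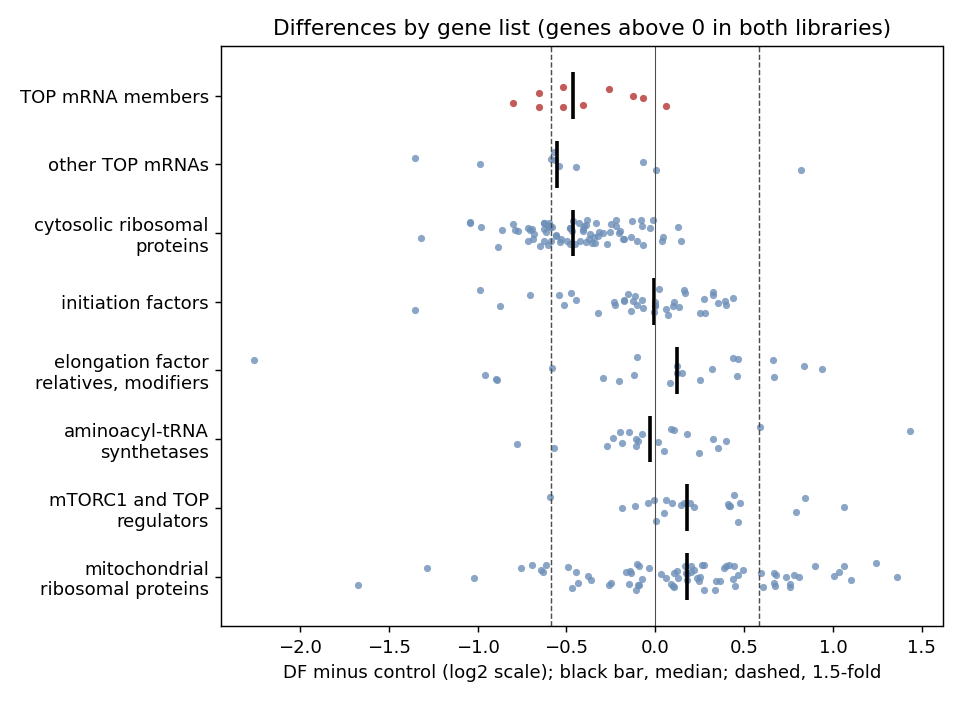
DF minus control (log2 scale, x axis) of each gene above 0 in both libraries, by gene list (y axis), with the list's median as a black bar and 1.5-fold as dashed lines. The medians of the members, the other TOP mRNAs and the cytosolic ribosomal proteins lie between -0.55 and -0.46, and those of the other 5 lists between -0.03 and 0.18.

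Other parts of the translation machinery did not have such a median. Of 41 initiation factor genes, 3 of 38 examined were lower and 0 higher, with a median of -0.01. The 5 of them on the TOP list had a median of -0.54 and the other 36 a median of 0.00, a split made after the values were seen. The 36 hold 1 gene counted as lower, Eif4a2 (13.29 and 12.41), which is also on the list of small nucleolar RNA host genes and counted there too. The cytosolic aminoacyl-tRNA synthetases, which charge the tRNAs that eEF1A carries, had a median of -0.03, with 1 of 21 examined lower and 1 higher. For 24 relatives and modifiers of the elongation factors the median was 0.12, with 1 of 12 examined higher and 0 lower; Eif5a, the most abundant, was at 14.53 and 14.97. Eef1a2, the muscle and neuron form of eEF1A, was listed at 0 in both libraries (named after its values were seen). Among 9 factors of mitochondrial translation 1 of 6 examined was higher and 0 lower, with a median of 0.01. The median of the mitochondrial ribosomal proteins was above 0, at 0.18, unlike that of the cytosolic ones. Of 64 examined, 16 were higher, 3 lower and 45 within 1.5-fold, beside 10.2% higher and 10.9% lower of all genes examined. Of the 77 above 0 in both libraries, 27 had a difference below 0.

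Close partners of the members did not all follow them. Of all genes examined, 10.9% were lower and 10.2% higher by the 1.5-fold rule. Nap1l4, a relative of Nap1l1, was 1.81-fold lower (12.13 and 11.27), while Nap1l1 itself was 0.06 log2 units higher. In that list of 12 histone chaperones 1 of 7 examined (14.3%) was lower and 0 higher, with a median of -0.12. Paip2, an inhibitor of the poly(A)-binding protein, was 1.91-fold lower (10.33 and 9.39) beside the small difference of Pabpc1. In its list 2 of 17 examined (11.8%) were lower, close to the share of all genes examined, and 0 higher, with a median of 0.00. Among partners of Naca and Btf3 at the nascent chain, 3 of 13 examined (23.1%) were lower and 0 higher, with a median of -0.23. They were Srp72 and Srp9, of the signal recognition particle, and Nacc1, a transcriptional regulator that shares only a similar symbol.

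Of 22 genes of mTORC1, its regulators and TOP-binding proteins, 2 of 18 examined (11.1%) were higher, close to the 10.2% of all genes examined, and 0 were lower. Their median was 0.18. The other 16 examined lay within 1.5-fold, among them the 2 most abundant, Cnbp (13.06 and 12.87) and Tsc2 (12.75 and 12.71). Akt1s1 (PRAS40), an inhibitory subunit of mTORC1, was at 11.66 and 12.45, 1.73-fold higher. Sesn1, which restrains mTORC1 when amino acids are scarce, was at 7.93, under the level floor, in the control and 8.77 with DF. Larp1, named after its values were seen, was at 10.75 and 10.94. These are mRNA levels, and the activity of mTORC1 was not measured.

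Some markers of cell state differed between the libraries in the same comparison. Of all genes examined, 10.2% were higher and 10.9% lower by 1.5-fold. Of 16 adipocyte markers 16 were above 0 in both libraries, 3 (18.8%) were higher, 0 lower and 13 within 1.5-fold. Linear values of the 16 summed to 710891 in the control and 821573 with DF. Of 10 preadipocyte and fibroblast markers 9 were above 0 in both (Cd34 was listed at 0). Of 8 examined, 5 (62.5%) were lower, 0 higher and 3 within 1.5-fold. The sum of this list was 229289 and 131294. Dlk1, the preadipocyte factor, was 2.73-fold lower (16.55 and 15.10), whereas Fn1 (16.20 and 15.89) lay within 1.5-fold. The sums of both lists weigh the most abundant markers most, among them Dlk1 and Lpl, which was at 17.55 in both libraries. At such high ranks a difference restates a change of rank, as for Eef1a1. Of 8 macrophage markers 3 were above 0 in both, with Adgre1 and Mrc1 at 0 in both libraries. Their sums, over all values above 0 in each library, were 35.6 and 63.5. Of 6 endothelial markers 1 was above 0 in both, with Kdr, Tek, Emcn and Cldn5 at 0 in both. Their sums, taken in the same way, were 89.8 and 11.5. Fewer cells of a type and less RNA per cell cannot be told apart in such libraries, and the part of cell state in the values of the TOP mRNAs was not tested.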

How the data were processed

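Per the labels, RNA (500 ng) was made into libraries with a Lexogen 3' end kit and read as single 75 nt reads. Bowtie2, edgeR and mm10 are named, with no role or version, per the submitters' processing notes; no source used here gives the counter, annotation, strand handling or normalization. The authors deposited log2 values, 1 per gene symbol and library. Of the linear values (2 raised to the deposited value) under 1000, 100% lie within 0.001 of a multiple of 1/8, so they may be means over 8 libraries at each rank. A value of 0 is called listed at 0.

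The members, gene lists, rules and alternatives were chosen with earlier results of these data known. Named are all members and, within a list, genes among the 2 most abundant or the 3 that differed most among those counted, besides those said to be named after their values were seen and the cell type markers listed at 0. No p-value was computed. The counting rule and the trimmed mean were tested on simulated data with far less spread between libraries than these data have. That checks the code and not how the rule behaves here. Alternatives covered the fold limit, level floor, centring, scaling, pseudocount, start window and each member left out. Python 3.11.15, pandas 2.3.3, numpy 2.4.6 and matplotlib 3.10.9 were used.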

Additional observations from a re-analysis of the deposited data

How the results depend on the processing

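With a fold limit of 2, the count of lower members went from 3 to 0. With no level floor, 3 members were lower and 0 higher, as they were under each centring, each scaling and the pseudocount of 16 on the linear scale. Across those 5 alternatives 9 of the 10 members kept a difference below 0, and Eef1b2 ranged from -0.84 to -0.80, Eef2 from -0.69 to -0.66 and Eef1g from -0.72 to -0.65. The sign of Nap1l1 stayed above 0, at 0.02 to 0.07. No scaling moved the median of all genes by more than 0.04 log2 units. Quantile normalization, which the identical highest ranks resemble, would leave little to rescale. The unchanged counts under centring and scaling are thus only a weak check. The median of the members was -0.52 to -0.41 with each member left out in turn, and -0.41 without the 3 that lay among the common highest ranks, an alternative added after seeing the data. Counts in the partner lists depended on the fold limit and on the level floor. At 2-fold 3 ribosomal protein genes were lower instead of 27. On the full list of 14 other TOP mRNAs, which includes ribosomal proteins, 2 were lower instead of 4. They were Eif2s3x and Rps27a, and Rps27a is counted in both lists. With no level floor the relatives and modifiers of the elongation factors went from 0 lower and 1 higher to 4 and 4, and the mitochondrial ribosomal proteins from 3 lower to 8. With 50 in place of 15 bases on either side of the start, 7 members had a pyrimidine run instead of 4. No paired analysis was possible because each condition holds 1 library. For the same reason no library could be left out, and the depth of the libraries, and so the counting error, is unknown.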
